A study of Mus musculus with 6 samples.

Results

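Gdpd3 encodes a glycerophosphodiester phosphodiesterase domain protein, and its level in AMPK KO CD4 T cells was compared here with that of its enzyme relatives and of the genes beside it on mouse chromosome 7. Of 23282 genes listed in the deposited data, 9 were taken by symbol, namely Gdpd3, the relatives Gdpd1, Gdpd2, Gdpd5 and Gde1, and the neighbours Mapk3, Ypel3, Ppp4c and Coro1a. Gdpd3 was chosen because it was far higher in AMPK KO than in WT samples, so its own difference is described without a test. The other 8 genes were chosen by family or position, and they address whether the rise was limited to Gdpd3. Of the 9 genes, 7 passed the filter for testing, which was a mean log2 value of at least 1 over the 6 samples.

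The samples were CD4 T cells from spleen and lymph nodes of C57BL/6 mice, 3 from WT mice (Prkaa1 fl/fl CD4 Cre-neg) and 3 from AMPK KO mice (Prkaa1 fl/fl with CD4 Cre), so the floxed Prkaa1 alleles were shared by both groups. The mice are described as females aged 6 to 8 weeks. CD4 Cre is driven by Cd4 regulatory sequence and is active from an early thymic stage, so it is not limited to CD4 T cells. All cells were rested for 1 h in RPMI-1640 and stimulated with anti-CD3 and anti-CD28 antibodies at 2 µg/mL, for 24 h per the labels and for 6 h per the published methods. The samples are described as biologically independent, but it is not said whether each came from its own animal, so the p-values measure the spread between these samples only.

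Glycerophosphodiester phosphodiesterases split the phosphodiester bond that joins glycerol to a head group in glycerophosphodiesters or lysophospholipids. Gdpd3 and Gdpd1 act as lysophospholipase D enzymes, which release lysophosphatidic acid, a lipid that signals through receptors on lymphocytes and other cells. Gde1 hydrolyses glycerophosphoinositol and glycerophospho-N-acylethanolamines. Gdpd2 and Gdpd5 are multi-pass membrane proteins with the catalytic domain outside the cell. Among the neighbours, Mapk3 encodes the kinase ERK1, Ypel3 a small zinc-binding protein of the Yippee family, Ppp4c the catalytic subunit of protein phosphatase 4, and Coro1a the actin regulator coronin 1A, which naive T cells need for survival.

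In the GRCm38 annotation (mm10, GENCODE M21) Gdpd3 lies on the plus strand at chr7:126766334-126775649. Mapk3, at chr7:126759601-126765819 on the same strand, ends 514 bases before it. Ypel3, at chr7:126776955-126780514 and also on the plus strand, begins 1305 bases after it. Ppp4c lies farther along on the minus strand at chr7:126785866-126792496, and Coro1a lies before Mapk3 on the minus strand at chr7:126699773-126707787. Gde1 (chr7:118688545-118705778, minus strand) and Gdpd5 (chr7:99381414-99461877, plus strand) are on the same chromosome but distant, while Gdpd1 is on chromosome 11 (chr11:87033867-87074062, minus strand) and Gdpd2 on the X chromosome (chrX:100729873-100738895, plus strand). The noncoding gene Gm9967 overlaps 7568 bases of Gdpd3 on the opposite strand. No value listed under the symbol Gm9967 was used here, and since it is not given whether reads were counted by strand, reads of that gene and of Gdpd3 cannot be told apart.

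Bases upstream of the annotated gene are given for Gdpd3, for Ypel3, the next gene on the same strand, and for Gdpd1. Gdpd1 is the relative with the same enzyme activity. The bases come from RefSeq promoter entries (GRCm38.p6), each cut before the first start given by RefSeq or GENCODE. RefSeq promoter entries were matched for 7 of the 9 genes. The windows are chr7:126766164-126766333 on the plus strand for Gdpd3, chr7:126776713-126776954 on the plus strand for Ypel3, and chr11:87074138-87074387 on the minus strand for Gdpd1, each written 5′ to 3′. That of Gdpd3 ends at its GENCODE start, while RefSeq starts the gene at 126766414, so the bases just before that start are not covered. Capitals mark matches on either strand to the GC box GGGCGG, the CCAAT box, the TATA box TATAAA, the E-box CACGTG or the motif CCACG.
Gdpd3: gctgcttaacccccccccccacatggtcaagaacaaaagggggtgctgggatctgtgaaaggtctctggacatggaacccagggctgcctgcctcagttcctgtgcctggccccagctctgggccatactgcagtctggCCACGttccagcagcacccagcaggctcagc
Ypel3: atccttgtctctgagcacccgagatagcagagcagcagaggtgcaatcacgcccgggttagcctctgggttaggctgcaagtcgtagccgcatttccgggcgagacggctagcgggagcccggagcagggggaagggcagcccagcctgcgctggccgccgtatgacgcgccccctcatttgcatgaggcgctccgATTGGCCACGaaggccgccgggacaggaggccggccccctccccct
Gdpd1: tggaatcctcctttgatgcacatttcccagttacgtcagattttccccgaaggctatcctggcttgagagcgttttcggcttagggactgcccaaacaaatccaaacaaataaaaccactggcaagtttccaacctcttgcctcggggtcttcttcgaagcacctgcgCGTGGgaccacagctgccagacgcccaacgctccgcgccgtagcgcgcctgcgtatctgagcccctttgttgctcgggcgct
The 170 bases before the GENCODE start of Gdpd3 held a single match, to CCACG. That motif was found in 19.3% of 32851 promoter windows cut to the same part, which also leaves out the bases nearest the start. The window of Ypel3 held 1 match to CCAAT, present in 33.2% of windows of its length, directly followed by 1 to CCACG (27.6%). The window of Gdpd1 held 1 match to CCACG (28.3%). The window of Gdpd3 held 1 CpG dinucleotide in 170 bases, against a median of 3 over the promoter windows cut alike, of which 13.7% had fewer. Ypel3 had 21 CpG in 242 bases and Gdpd1 had 18 in 250, with 84.9% and 78.3% of windows having fewer. These windows reach closer to the RefSeq start than that of Gdpd3, so they are not compared with it. These matches are letters in a sequence and say nothing on binding.

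The libraries held 9575096 to 11185360 reads on genes, and outside Rn45s every AMPK KO library was deeper than every WT library, at 9623714 to 10025160 against 7194291 to 8064287 reads. Rn45s, the ribosomal RNA precursor, had a share of 22.4% ± 2.21 (SD, n = 3) for WT libraries, against 9.89% ± 1.24 (SD, n = 3) for AMPK KO. Prkaa1, the targeted gene, had log2 values of 4.64, 5.24 and 4.86 in WT and 4.08, 4.72 and 4.67 in AMPK KO samples, which overlapped, so its level does not check the labels. Over the 11279 tested genes, limma found 637 (5.65%) past an adjusted p of 0.05, with 287 higher and 350 lower in AMPK KO, and 25.6% had groups that did not overlap. After scaling to the reads outside Rn45s, 235 were higher and 487 lower. Although only female mice are named, reads of the Y-linked Ddx3y numbered 3158 to 3462 per WT library and 1296 to 1840 per AMPK KO library. The Y-linked genes Kdm5d, Eif2s3y and Uty were also lower in every AMPK KO sample than in every WT sample, by log2 differences of −1.42, −1.06 and −0.75 (adjusted p = 0.0328, 0.0245 and 0.0566 in limma), and Xist was higher in AMPK KO, as given with the genes nearest to Gdpd3. The Y-linked reads disagree with the stated sex, and a difference in sex between the groups and the genotype cannot be told apart for Gdpd3 or any other gene here.

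Gdpd3 was barely detected in WT cells and readily detected in AMPK KO cells. In WT samples 1 to 3 the log2 value was 2.33, 2.74 and 1.30, resting on 37, 57 and 13 reads. In AMPK KO samples 1 to 3 it was 8.94, 9.45 and 8.89, resting on 5809, 7511 and 5630 reads. Every AMPK KO sample stood far above every WT sample, and the gap between the lowest AMPK KO and the highest WT value was 6.15. Mean log2 values of 2.12 ± 0.74 (SD, n = 3) in WT and 9.09 ± 0.31 (SD, n = 3) for AMPK KO gave a log2 difference of 6.97 (standard error 0.30). This difference is on the scale of log2 of the normalized value plus 1, which understates changes from a low level. On the linear scale the normalized value rose from 3.73 ± 2.13 to 554 ± 126 (SD, n = 3), or 149-fold. Among the 11279 tested genes, only Tsix had a larger rise. The difference lay between 6.56 and 7.33 under the 14 alternative settings, and leaving out single samples gave 6.56 to 7.28.
Within the groups, WT sample 3 had the lowest Gdpd3 value and AMPK KO sample 2 the highest. The WT range of 1.44 was wider than the AMPK KO range of 0.56, and 883 tested genes had a wider range in WT.

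**Figure D1:**
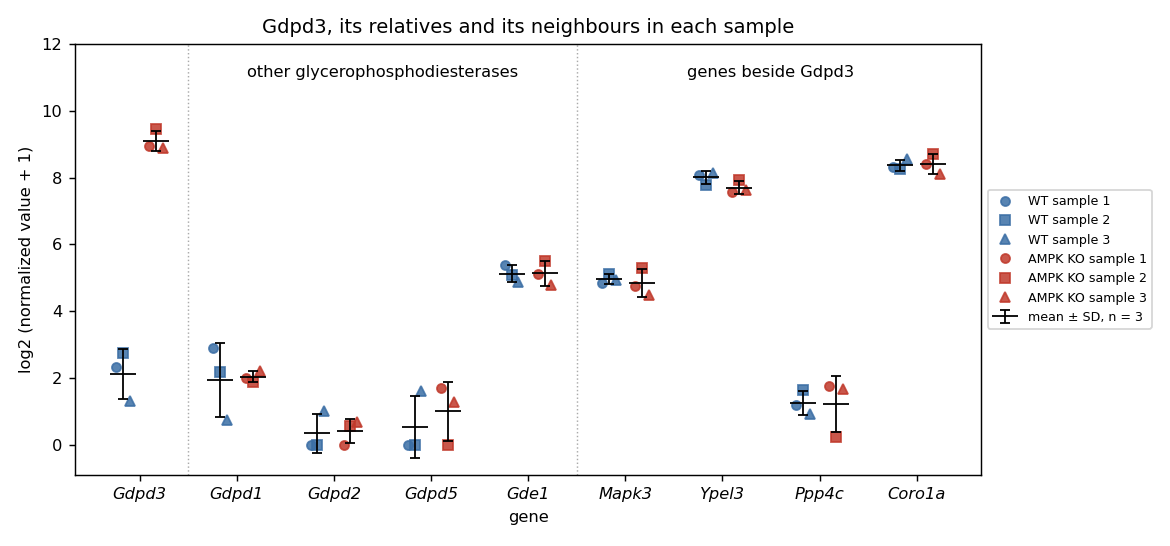
The vertical axis is log2 of the normalized value plus 1 and the horizontal axis the 9 genes, with WT samples in blue, AMPK KO samples in red, and bars for the mean ± SD (n = 3). Gdpd3 separates into WT values of 1.30 to 2.74 and AMPK KO values of 8.89 to 9.45, whereas the groups overlap for each of the other 8 genes.

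None of the relatives showed a comparable pattern, and in each of them the WT and AMPK KO values overlapped. Gdpd1, the other lysophospholipase D, had log2 values of 2.91, 2.17 and 0.75 in WT samples and 2.01, 1.89 and 2.21 in AMPK KO samples. It rested on 6 to 60 reads, and its WT samples spanned the whole range of the AMPK KO samples. The log2 difference was 0.09 (standard error 0.50, 95% interval −0.98 to 1.17, adjusted p = 0.941 in limma).
Gde1 was measured more firmly, with 251 to 478 reads. Its values were 5.38, 5.08 and 4.88 in WT and 5.11, 5.51 and 4.77 in AMPK KO samples. The lowest and the highest sample were both AMPK KO, and the difference was 0.02 (standard error 0.23, 95% interval −0.48 to 0.51, adjusted p = 0.978 in limma).
Gdpd2 and Gdpd5 had means below the filter. Gdpd2 had 0, 0 and 9 reads in the WT libraries and 0, 5 and 7 in the AMPK KO libraries. Gdpd5 had 0, 0 and 18 reads in WT and 27, 0 and 17 in AMPK KO. Libraries without a read stood beside libraries with some in both groups, and a count of 0 allows up to 3 reads for counting error only. Tested without the filter, Gdpd2 had a difference of 0.07 (standard error 0.31, adjusted p = 0.922 in limma) and Gdpd5 of 0.46 (standard error 0.54, adjusted p = 0.706 in limma). WT sample 3, the lowest WT sample for Gdpd3 and Gdpd1, was the only WT library with reads of Gdpd2 and Gdpd5.
Outside the 9 genes, the family holds Gdpd4 and Gpcpd1. Gdpd4 had 0 reads in each library. Gpcpd1, which hydrolyses glycerophosphocholine, had values of 6.29, 6.30 and 6.15 in WT and 6.07, 5.85 and 6.43 in AMPK KO samples. AMPK KO sample 3 was above and the other two AMPK KO samples below all WT samples, with a difference of −0.13 (standard error 0.18, 95% interval −0.51 to 0.25, adjusted p = 0.728 in limma). Of the 3 tested relatives Gdpd1, Gde1 and Gpcpd1, limma called 0, with 0 at an unadjusted p under 0.05 and 0 with voom. Since 5.65% of all tested genes were called and 21.3% had an unadjusted p under 0.05, a count of 0 among 3 genes is near the background.

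Mapk3 and Ypel3, the neighbours that directly flank Gdpd3, were well measured. Mapk3, which ends just before it, had log2 values of 4.84, 5.11 and 4.95 in WT and 4.75, 5.29 and 4.48 in AMPK KO samples, from 253 to 408 reads. Both its highest and its lowest sample were AMPK KO. The difference was −0.13 (standard error 0.24, 95% interval −0.64 to 0.38, adjusted p = 0.805 in limma).
Ypel3, which follows Gdpd3, had values of 8.08, 7.78 and 8.14 in WT and 7.56, 7.92 and 7.62 in AMPK KO samples. AMPK KO samples 1 and 3 lay below all WT samples, but sample 2 lay above WT sample 2. With 2194 to 2585 reads per library, the difference was −0.30 (standard error 0.15, 95% interval −0.63 to 0.02, adjusted p = 0.274 in limma), opposite in sign to that of Gdpd3, and negative in each of the 14 alternative settings.
Ppp4c had 12, 21 and 8 reads in WT and 28, 2 and 26 reads in AMPK KO libraries. Its difference of −0.03 (standard error 0.50, 95% interval −1.10 to 1.04, adjusted p = 0.980 in limma) is therefore imprecise, and AMPK KO sample 2 was the lowest of the 6.
Coro1a had 2912 to 4515 reads. Its values were 8.31, 8.25 and 8.56 in WT and 8.42, 8.72 and 8.12 in AMPK KO samples. The lowest and the highest value were again both from AMPK KO, with a difference of 0.05 (standard error 0.16, 95% interval −0.30 to 0.40, adjusted p = 0.904 in limma).
Of the 6 tested genes other than Gdpd3, limma called 0, with 0 at an unadjusted p under 0.05 and 0 with voom, against 5.65% of all tested genes called. None of the 6 had groups that did not overlap, against 25.6% of all tested genes. The count of calls was 0 under each of the 14 alternative settings.

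Expressed within each sample, the log2 value of Gdpd3 minus that of Mapk3 was −2.51, −2.37 and −3.64 in WT and 4.19, 4.17 and 4.41 in AMPK KO samples. The difference was higher in every AMPK KO sample than in every WT sample, and since transcript length may enter it, it is read between samples only. Its SD was 0.70 (n = 3) in WT, where Mapk3 varied by an SD of 0.14, and 0.14 (n = 3) in AMPK KO, where sample 2 was the highest of its group for both genes. Minus Ypel3, the values were −5.76, −5.04 and −6.84 in WT and 1.38, 1.54 and 1.27 in AMPK KO samples, with an SD of 0.90 (n = 3) in WT and 0.13 (n = 3) in AMPK KO. AMPK KO sample 2 was also the highest of its group for Gde1, Ypel3 and Coro1a, but not for Gdpd1 and Ppp4c. Of all tested genes 39.2% had their highest AMPK KO value in that sample.

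To view a wider stretch, the 10 tested genes on each side of Gdpd3 were taken in RefSeq order, a span of 401 kb that holds 33 RefSeq genes with Gdpd3. Of these 20 neighbours, 10 had a higher and 10 a lower mean in AMPK KO, and their median log2 difference was 0.02, as was that of all tested genes. Limma called 2 of the 20, where 5.65% of all tested genes were called, and 6 of 20 had groups that did not overlap, against 25.6%.
The gene called higher was Bola2, which encodes a protein of iron-sulfur cluster handling and lies 69720 bases before Gdpd3. Its log2 values were 6.25, 6.19 and 6.45 in WT and 6.86, 7.24 and 6.70 in AMPK KO samples. All AMPK KO samples were above all WT samples, by a mean of 0.64 (standard error 0.17, adjusted p = 0.0431 in limma). This call was lost in 9 of 14 alternative settings, where the adjusted p over all settings ranged from 0.0261 to 0.174. Bola2 overlaps Coro1a by 26 bases and Slx1b by 384 bases on the opposite strand.
The gene called lower was Cln3, which encodes a lysosomal membrane protein mutated in Batten disease and lies 180596 bases before Gdpd3. Its values were 4.96, 4.98 and 4.94 in WT and 3.63, 3.30 and 3.48 in AMPK KO samples. The groups were far apart for their spread, with a difference of −1.49 (standard error 0.24, adjusted p = 0.00282 in limma), which stayed past the threshold in each of 14 alternative settings (adjusted p 0.00133 to 0.0414). Cln3 overlaps Apobr by 876 bases on the opposite strand.
Between Ypel3 and Ppp4c lies Tbx6, a T-box transcription factor of the embryonic mesoderm, with 35 to 86 reads. Its values of 3.03, 3.26 and 3.04 in WT were all above those of 2.64, 2.09 and 2.66 in AMPK KO, but the difference of −0.65 (standard error 0.35) had an adjusted p of 0.300 in limma. Aldoa, a glycolytic aldolase beyond Ppp4c, had values of 6.97, 7.01 and 7.09 in WT and 7.37, 7.90 and 7.25 in AMPK KO. It was higher in all 3 AMPK KO samples, with a difference of 0.48 (standard error 0.17, adjusted p = 0.116 in limma). Across the 20 neighbours the differences ranged from −1.49 to 1.12, compared with 6.97 for Gdpd3.

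**Figure D2:**
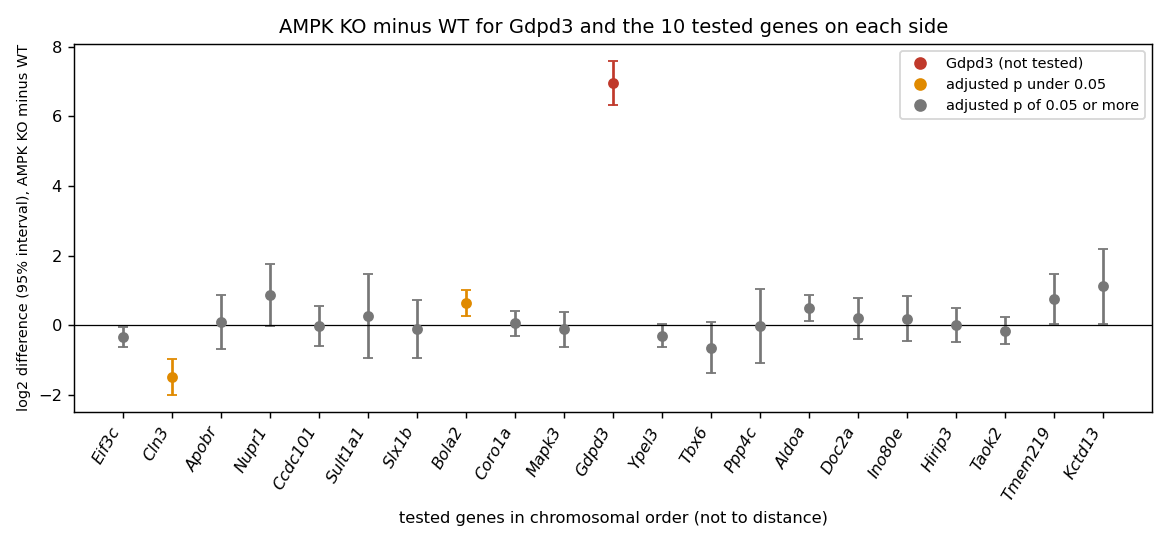
The vertical axis is the log2 difference of AMPK KO minus WT with its 95% interval from limma, and the horizontal axis holds the tested genes in chromosomal order, not to distance. Gdpd3 stands at 6.97, and since it was chosen for its rise, its interval is a description and no test. The 20 neighbours lie between −1.49 and 1.12, with Bola2 and Cln3 past the adjusted threshold.

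Lysophosphatidic acid and related lipids are made, converted and sensed by other proteins, and a list of 65 such genes was examined. All 65 were listed and 46 were tested. Of these, 2 were called higher and 2 lower by limma, against 2.54% and 3.1% of all tested genes, and the median log2 difference was 0.07, against 0.02 for all tested genes. An unadjusted p under 0.05 was found for 15 of the 46, against 21.3% of all tested genes. For 15 of the 46 the groups did not overlap, against 25.6%.
Among the receptors, Lpar6 and Gpr174 were called lower. S1pr1, S1pr4 and Gpr132 had differences of −0.56, −0.55 and −0.44 without a call (adjusted p = 0.0820, 0.0672 and 0.119 in limma). S1pr2 differed by 0.13 (adjusted p = 0.905 in limma). Lpar6, a receptor for lysophosphatidic acid, had values of 6.46, 6.66 and 6.08 in WT and 5.40, 5.56 and 5.07 in AMPK KO samples. The groups did not overlap, and the difference was −1.06 (standard error 0.20, adjusted p = 0.00761 in limma). Lpar6 lies within Rb1 on the opposite strand, and its call was lost in 1 of 14 alternative settings.
Gpr174, a receptor for lysophosphatidylserine, had values of 6.95, 6.96 and 7.05 in WT and 5.95, 5.12 and 5.87 in AMPK KO samples. It was lower in all 3 AMPK KO samples by a mean of 1.34, written as a difference of −1.34 (standard error 0.21, adjusted p = 0.00188 in limma), and remained past the threshold in each of 14 alternative settings. P2ry10, a further lysophosphatidylserine receptor, had a difference of 0.27 (standard error 0.16, adjusted p = 0.351 in limma) and overlapping groups. The other lysophosphatidic acid receptors were nearly absent, with at most 12 reads in a library for Lpar1, Lpar3 and Lpar4, and 0 reads in each library for Lpar2 and Lpar5.
Among the enzymes, 2 acyltransferases were called higher. Agpat4, which acylates lysophosphatidic acid to phosphatidic acid, had values of 4.59, 3.91 and 4.39 in WT and 5.01, 5.45 and 5.32 in AMPK KO samples. All AMPK KO samples were higher, by 0.96 (standard error 0.24, adjusted p = 0.0318 in limma), and the call was lost in 7 of 14 alternative settings. Agpat6, now named Gpat4, makes lysophosphatidic acid from glycerol 3-phosphate. Its values were 6.47, 6.08 and 6.12 in WT and 6.74, 6.82 and 7.05 in AMPK KO samples, with a difference of 0.65 (standard error 0.17, adjusted p = 0.0353 in limma), and its call was lost in 8 of 14 settings. Enpp2, the secreted lysophospholipase D autotaxin, had 20 to 40 reads per library and a difference of 0.28 (standard error 0.39, 95% interval −0.55 to 1.11, adjusted p = 0.731 in limma). The count of calls in this list depended on single samples. Leaving out WT sample 1 gave 1 call and leaving out WT sample 3 gave 2. Leaving out AMPK KO sample 1 gave 2 and leaving out sample 2 of that group gave 7.

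**Figure D3:**
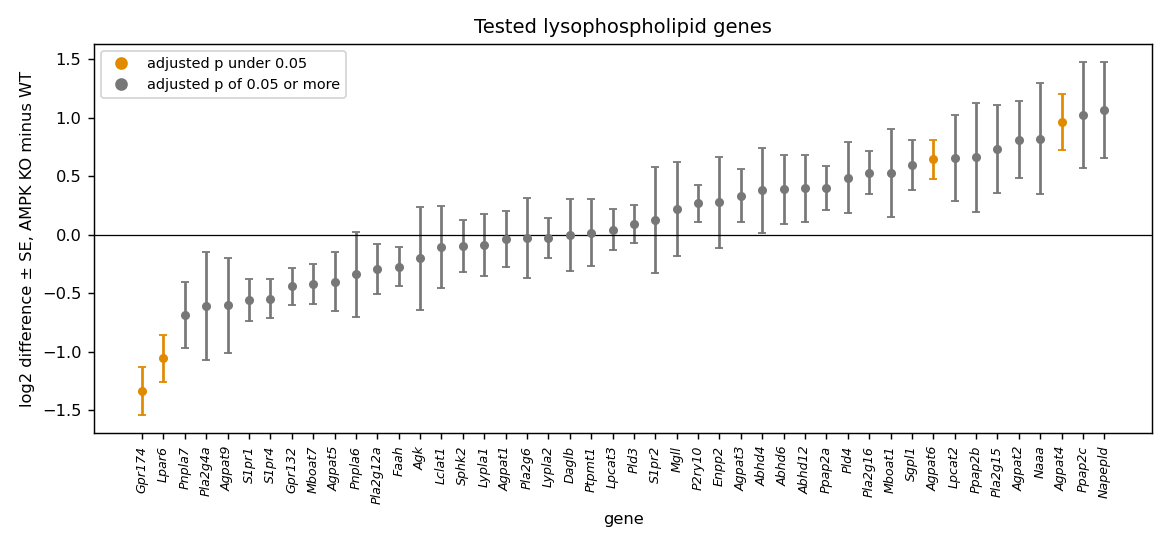
The vertical axis is the log2 difference of AMPK KO minus WT with its standard error, and the horizontal axis the 46 tested genes of the lysophospholipid list in order of their difference. Gpr174 at −1.34 and Lpar6 at −1.06 are called lower, and Agpat6 at 0.65 and Agpat4 at 0.96 are called higher.

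The pathways of the neighbours were examined likewise. ERK1, the product of Mapk3, is activated by a cascade from the T cell receptor, and of 35 genes of this cascade, its feedback and the related ERK5 branch (Mapk7 and Map2k5), 33 were tested. Limma called 2 higher and 2 lower, against 2.54% and 3.1% of all tested genes, and the median difference was −0.03. Dusp1, a phosphatase that inactivates MAP kinases, rose by 0.84 (standard error 0.20, adjusted p = 0.0233 in limma), and Mapk7, the kinase ERK5, by 1.15 (standard error 0.31, adjusted p = 0.0401 in limma). Egr1, an immediate early gene downstream of ERK, differed by −0.76 (standard error 0.14, adjusted p = 0.00592 in limma), and Sos1, an exchange factor for Ras, by −0.79 (standard error 0.22, adjusted p = 0.0460 in limma). Dusp1, Mapk7 and Sos1 each overlap another gene on the opposite strand. For these 4 genes the groups did not overlap, as for 7 of the 33 in the list and for 25.6% of all tested genes, but the calls of Dusp1, Egr1, Mapk7 and Sos1 were lost in 5, 2, 8 and 9 of 14 alternative settings. Leaving out WT sample 1 gave 0 calls and WT sample 3 gave 1, while leaving out AMPK KO sample 1 gave 1 and sample 2 of that group gave 7.
A list of 19 subunits and paralogs of Ppp4c, Coro1a and Ypel3 had 16 tested genes, of which limma and voom each called 0 and 4 had an unadjusted p under 0.05, close to the share of 21.3% of all tested genes. These 4 were Igbp1 at 0.84, Coro2a at 1.02, Ypel2 at −0.85 and Ypel5 at −0.48, with adjusted p from 0.128 to 0.169 in limma. The median difference was −0.01, and without AMPK KO sample 2 the number of calls was 2.

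The tested genes whose pattern over the 6 samples was nearest to that of Gdpd3 were sought by the Euclidean distance between centred log2 values. In order, they were Xist at a distance of 1.36, Tsix at 1.76, Rplp1 at 4.75, Gzmm at 4.94 and Sostdc1 at 5.10, while the median over all tested genes was 8.63. The measure favours genes with a large difference between the groups, which for these 5 was 2.82 to 7.47. Their Pearson correlations with Gdpd3, 0.97 to 0.99 over the same 6 libraries, are a description that the difference between the groups sets.
Xist, the RNA that coats the inactive X chromosome, had 32, 27 and 8 reads in WT and 2837, 1998 and 2876 in AMPK KO libraries. It was low in all WT and high in all AMPK KO samples like Gdpd3, but AMPK KO sample 2, the highest sample for Gdpd3, was the lowest of its group for Xist. Tsix, which overlaps Xist on the opposite strand, was likewise lowest in sample 2 among AMPK KO libraries, with 2617, 1801 and 2564 reads there, and with 0, 0 and 4 in WT.
Rplp1, a protein of the ribosomal stalk, had values of 10.75, 10.91 and 10.63 in WT and 13.71, 14.36 and 13.69 in AMPK KO samples. Gzmm, a granzyme of cytotoxic lymphocytes, had 22, 15 and 2 reads in WT and 139, 236 and 193 in AMPK KO libraries. Sostdc1, a secreted antagonist of BMP and Wnt signals, had 5, 19 and 0 reads in WT and 114, 168 and 94 in AMPK KO libraries. In all 3 genes AMPK KO sample 2 was the highest of the 6 and WT sample 3 the lowest, the order also seen in Gdpd3.

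**Figure D4:**
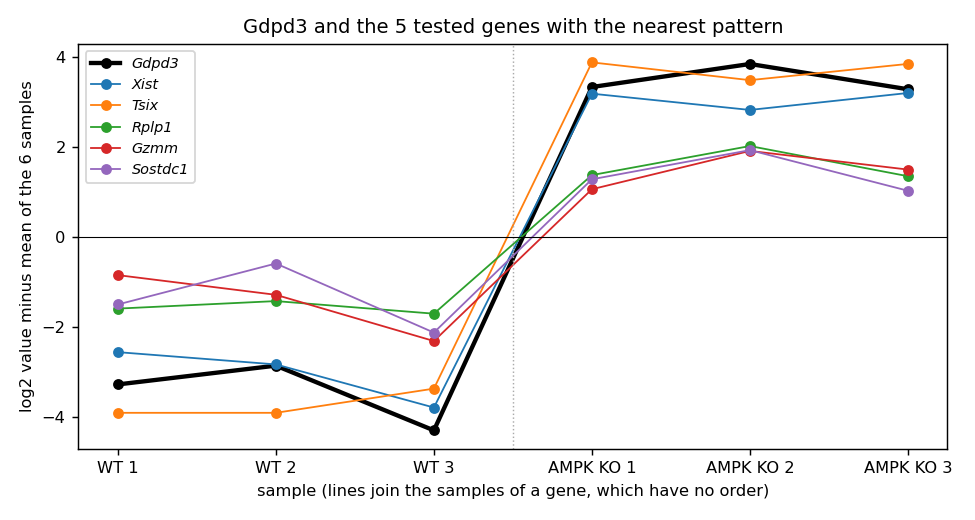
The vertical axis is the log2 value minus the gene's mean over the 6 samples and the horizontal axis the samples, which have no order within a group, for Gdpd3 in black and the 5 nearest genes. Gdpd3, Xist and Tsix have the widest separation, and Gdpd3, Rplp1, Gzmm and Sostdc1 have their highest value in AMPK KO sample 2.

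Markers of other cell types moved with the groups as well, and the counts that follow stand against 5.65% of all tested genes called and 21.3% with an unadjusted p under 0.05. Of 7 listed T cell markers, 3 were called lower (Cd3e, Cd3g and Cd28), 0 were called higher, and the summed normalized level was 1784 to 2007 in WT and 1299 to 1668 in AMPK KO samples. The calls of Cd3e, Cd3g and Cd28 were lost in 6, 2 and 8 of 14 alternative settings. Of 8 macrophage and monocyte markers, 3 were called higher (Csf1r, Cd14 and Cd68), with a summed level of 256 to 291 in WT and 450 to 695 in AMPK KO. Csf1r lost its call in 6 and Cd68 in 1 of 14 settings, while Cd14 kept it in each. In bulk samples, fewer cells of a type and less RNA per cell cannot be told apart. The plasma cell markers summed to 196 to 246 in WT and 509 to 539 in AMPK KO, and Jchain was the only one of 5 called higher, with a log2 difference of 2.60. Without Jchain, the other 4 summed to 139 to 182 in WT and 148 to 182 in AMPK KO, which overlapped. Mzb1, Prdm1 and Sdc1 had differences of 0.75, 0.54 and 0.83 and Irf4, which activated T cells also express, of −0.35, with adjusted p from 0.0566 to 0.325 in limma. The groups did not overlap for 3 of the 5, namely Jchain, Mzb1 and Prdm1. The summed level of 4 epithelial markers was 3.80 to 4.86 in WT and 8.27 to 11.7 in AMPK KO, that of 5 platelet markers 7.01 to 15.2 and 17.4 to 30.6, and that of 5 NK cell markers 78.3 to 93.9 and 89.3 to 156. In the lists of NK cells and platelets 1 gene each was called higher, and in those of epithelial cells, CD8 T cells, B cells and erythroid cells limma called 0, with 1, 2, 1 and 0 genes at an unadjusted p under 0.05 and 0, 0, 0 and 0 called by voom. The summed level of the CD8 T cell markers Cd8a and Cd8b1 was 231 to 305 in WT and 321 to 376 in AMPK KO samples, which did not overlap, in samples labelled as CD4 T cells. The sums overlapped for B cells, at 202 to 221 and 189 to 242, and for erythroid cells, at 3983 to 4587 and 2856 to 5556. Of 6 listed neutrophil markers, 1 was called lower, and their sum was 708 to 786 in WT and 467 to 704 in AMPK KO. Every listed marker had reads in at least 1 library, but Krt18 had 0 reads in the WT libraries, Krt8 had 0 in the AMPK KO libraries, and Elane, a neutrophil marker, had 0 in the AMPK KO libraries. The part of these shifts in the level of Gdpd3 was not tested.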

How the data were processed

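Stimulated CD4 T cells, 3 samples of WT and 3 of AMPK KO mice by their labels, were profiled by RNA sequencing. The labels name a Lexogen Quant-Seq kit, but whether the reads cover 3′ ends or whole transcripts could not be settled from the sources used here, and differences between genes within a sample were compared between samples only. The authors deposited 1 log2 value per gene and library, to which 1 had been added after TMM and CPM normalization. Bowtie2, bedtools and mm10 are named in the submitters' processing notes, and the counting settings are not given in the sources used here. Whole reads were recovered because 100% of values up to 100 reads lay within 0.1 of a whole multiple of a single step per library.

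Genes with a mean log2 of at least 1 were tested with limma 3.58.1 (lmFit, eBayes with trend, R 4.3.3), two-sided, with genotype only, adjusted by Benjamini-Hochberg over 11279 genes at a threshold of 0.05. The paper's methods name a different two-group test. Older symbols were matched through RefSeq synonyms. The genes examined, the gene lists and the tests were chosen with earlier results of these data known. Named were the 9 genes, further family members, direct neighbours, called list members (at most 4 per direction) and the 5 genes nearest in pattern; Gdpd3 was left untested. Members of the lists outside this rule, such as Aldoa, Enpp2, P2ry10 and the lysophosphatidic acid receptors, were named after their values were seen. Alternatives were a replicate block, quantile normalization, scaling outside Rn45s, other filters, a pseudocount of 0.25, robust spread, voom on recovered reads and leaving out each sample. The fit was tested on simulated data. Reads carry no molecular identifiers, so floors cover counting error only. Plots used matplotlib 3.10.9.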

Additional observations from a re-analysis of the deposited data

How the results depend on the processing

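The log2 difference of Gdpd3 was 6.56 to 7.33 over 14 alternatives, against 6.97 as deposited, a move below the WT SD of 0.74 but in some above the AMPK KO SD of 0.31, and the counts of 0 for the other members and for the family were 0 in each of them. The number of genes called over all tested genes, 637 as deposited, was 102 with the replicate block, 308 without a filter, and 127 to 1246 when single samples were left out. Of the 20 neighbours, 1 rather than 2 was called with the replicate block, scaling outside Rn45s, no filter or voom, and 1 to 2 when single samples were left out. Of the lysophospholipid list, 2 were called with the replicate block, 2 without a filter, and 1 to 7 when single samples were left out. Of the ERK list, 0 were called with the replicate block, 1 without a filter, and 0 to 7 when single samples were left out. Of the list around Ppp4c, Coro1a and Ypel3, 0 to 2 were called when single samples were left out. The smaller number of samples and, without a filter, the larger number of genes tested enter these counts, and the cause was otherwise not tested.

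The replicate numbers do not pair the samples, since deviations from the group means of same-numbered samples correlated at −0.08, −0.32 and −0.16 over the tested genes. Scaling to reads outside Rn45s shifted the median log2 difference by −0.07. The signs of Gdpd1, Gde1, Mapk3, Ppp4c and Coro1a turned in 2, 3, 1, 2 and 3 alternatives, without a call in any. Depth limits Gdpd1, Gdpd2, Gdpd5 and Ppp4c, which had at most 60 reads in a library.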
